A study of Homo sapiens with 9 samples.

Results

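The ERK inhibitor SCH772984 was compared with its vehicle in MIA PaCa-2 cells, an established line from a human pancreatic cancer, grown in culture with no engineered genotype. The comparison used 6 of the 9 RNA libraries of the study, namely 3 from cells given 1 μM SCH772984 for 24 h and 3 from cells given 0.1% DMSO for 24 h, chosen by their labels. The other 3 libraries came from cells given 1 μM compound 1, an inhibitor of TBK1 and IKKε, for 24 h, and serve below as a second reference. All groups are the same cell line, and the labels do not say whether replicates were separate cultures, so p-values measure the spread between these libraries, which may be technical. All 58735 genes of the deposited count table were considered, and the question was which pathways outside the cell cycle, the ribosome and the interferon response moved with ERK inhibition.

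ERK is the last kinase of the RAS, RAF, MEK and ERK cascade, which is often overactive in tumors. Active ERK phosphorylates transcription factors of the ETS and AP-1 families, and these switch on growth genes together with the pathway's own brakes, the Sprouty and SPRED proteins and the dual-specificity phosphatases (DUSPs) that act on ERK. The transcripts of these brakes are therefore widely read as a gauge of ERK output.

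Of the genes in the table, 13834 had enough counts to be tested, from libraries of 9464432 to 10286223 counts with DMSO and 11056977 to 13887859 counts with SCH772984. A gene was called where its Benjamini-Hochberg adjusted p, from the quasi-likelihood test of edgeR, was under 0.05, and by this rule 37.2% of all genes tested were higher and 35.5% were lower with SCH772984, while 18.2% were higher and 10.6% lower by at least 2-fold. Any list of genes has to be read against these shares. Lists of highly expressed genes have to be read against 25.7% higher and 59.2% lower, the shares in the highest of 5 classes by mean CPM. The median log2 fold change over all genes tested was 0.03, and the median standard error of a gene was 0.12 on the log2 scale. With no TMM factors, that is with libraries scaled only by their totals, the fit shifted the median gene up by 0.17 and gave 6242 higher and 3911 lower genes, so changes are relative to the bulk of the genes and small changes depend on the scaling. Of the tested genes, 1356 passed the filter on low counts through the SCH772984 libraries alone, and 1123 of these were called higher, while 270 passed through the DMSO libraries alone, and 173 of these were called lower. Of the 11982 that passed in both groups 33.5% were higher and 39.5% lower, the shares for lists counted over such genes. Where a gene list below is counted without such a split, at most 2 of its members passed through 1 group alone. Mitochondrially encoded transcripts held 3.33% to 3.98% of the counts with DMSO and 6.23% to 7.52% with SCH772984. Of the ductal markers, KRT8, KRT18 and KRT19 were well expressed, whereas KRT7, EPCAM and CDH1 had too few counts to be tested, and the summed ductal list was 3649.7 to 3922 CPM with DMSO and 1226 to 1392 CPM with SCH772984. Acinar markers were at 0 CPM in the DMSO libraries and at most 0.0853 CPM in the SCH772984 libraries, and the list of blood and endothelial markers summed to 2.39 to 3.33 CPM with DMSO and 0.768 to 1.76 CPM with SCH772984, with CD14 its lower member (-1.29). Of the endocrine markers 2 of 6 had enough counts to be tested. Of the ductal list MUC1 was higher (2.77) and SOX9 lower (-1.18). In bulk RNA a smaller share of cells that express a gene and less of its RNA per cell cannot be told apart. All values per library below are CPM (a gene's count relative to the TMM-scaled library total), given in the order of replicates 1 to 3, which compare 1 gene between libraries but not different genes with each other. For every gene given by library, other than TBK1, the lowest library of the higher group lay above the highest library of the other group, which was also so for 74.3% of all genes tested. A value in parentheses after a gene is its log2 fold change with SCH772984 against DMSO.

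**Figure D1:**
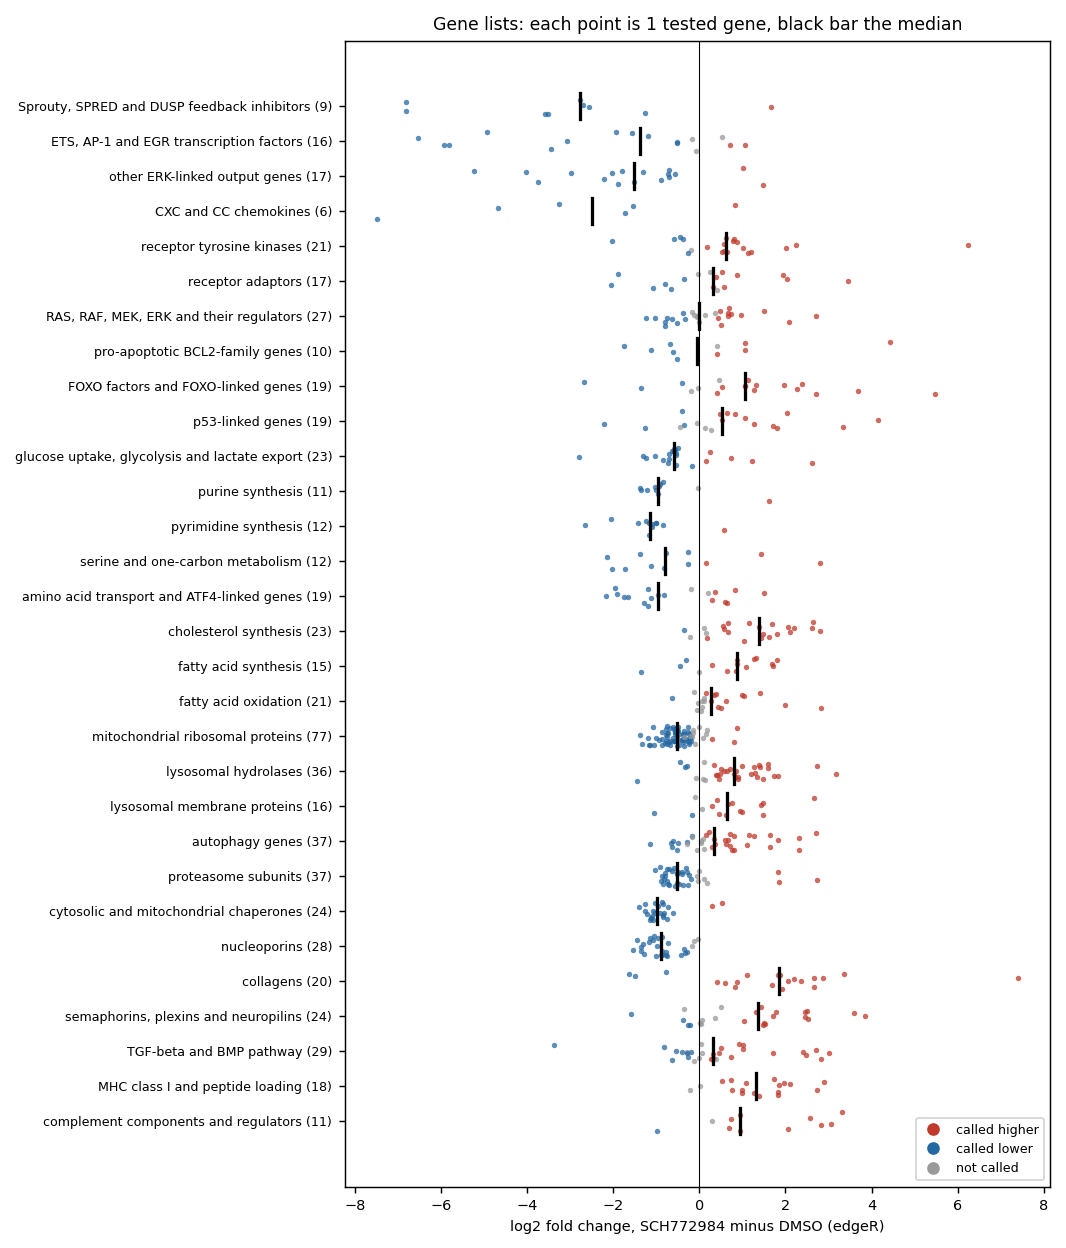
Log2 fold change of every tested member of 30 gene lists with SCH772984 against DMSO (x axis), with the list names and the number of tested members on the y axis. Points are genes, coloured by call, black bars are list medians, and genes at the floor of 3 counts stand at fitted values that are no bound. The medians of the feedback inhibitors, ETS and AP-1 factors, chemokines, nucleotide synthesis, chaperones and nucleoporins lie to the left of 0, and those of cholesterol synthesis, lysosomal hydrolases, collagens and MHC class I genes to the right.

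The brakes of the pathway were nearly all lower. Of 9 tested Sprouty, SPRED and DUSP genes, 8 were lower and 1 was higher, with a median log2 fold change of -2.78, and their summed level was 588 to 616 CPM with DMSO and 86.9 to 94.7 CPM with SCH772984. Of the 7 that passed the filter in both groups 6 were lower. SPRY4, which restrains signaling from receptors to RAS (chr5:142310427-142326455), was at 239.6, 236 and 229 CPM with DMSO and 1.60, 1.71 and 2.78 CPM with SCH772984. All 3 treated libraries thus lay far below all 3 DMSO libraries, and the log2 fold change was -6.81 ± 0.11 (SE, adjusted p = 6.44e-40 in edgeR's test). SPRED2, which holds back RAF activation, was at 35.9, 35.8 and 36.9 CPM with DMSO and 3.95, 3.24 and 2.04 CPM with SCH772984 a log2 fold change of -3.58. DUSP7, a cytoplasmic phosphatase of ERK, was at 143, 153 and 128 CPM with DMSO and 21.3, 19.3 and 21.2 CPM with SCH772984, with a log2 fold change of -2.78. DUSP5 (-3.51), SPRED1 (-2.70), SPRY1 (-2.57) and SPRY2 (-1.27) also fell. DUSP6, the phosphatase most closely tied to ERK, had 40, 25 and 51 counts with DMSO and 0, 1 and 0 counts with SCH772984, at least 17.8-fold lower against a floor of 3 counts per library, and 40.5% of its exonic bases overlap an antisense gene, so that its counts are uncertain. SPRED3 alone of the tested members went the other way, at a log2 fold change of 1.67.

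Of 16 tested ETS, AP-1 and EGR factors, which act downstream of ERK, 11 were lower, 2 were higher and 3 were not called. Because 5 of them, ETV1, ETV4, ETV5 and FOSL1 included, passed the filter through DMSO alone, that count has a direction built in. The calls of these named genes have it too. Of the 11 that passed in both groups 6 were lower and 2 higher, with a median log2 fold change of -0.51. A stricter filter of 10 counts per library left 7 lower and 3 higher. ETV5, ETV4 and ETV1 form the PEA3 group of ETS factors. ETV5 (chr3:186046308-186110318) was at 74.5, 74.6 and 72.7 CPM with DMSO and 0.672, 0.853 and 0.814 CPM with SCH772984, a log2 fold change of -6.54 ± 0.15 (SE, adjusted p = 1.55e-34), and ETV4 and ETV1 had log2 fold changes of -5.80 and -4.94. FOSL1, an AP-1 member stabilised by ERK in many tumors, was at 103, 109 and 106 CPM with DMSO and 0.756, 1.54 and 2.65 CPM with SCH772984, with a log2 fold change of -5.94 ± 0.15. The treated libraries differed more among themselves for FOSL1 than for ETV5, but none came near the DMSO libraries. The early gene EGR1 (-3.45), the ternary complex factor ELK3 (-3.08), JUN (-1.93) and MYC (-1.57) were also lower on the log2 scale. ETS1 (-0.18), FOSL2 (-0.066) and FOS (0.53) were not called, while JUNB (0.71) and JUND (1.07), AP-1 members too, were higher.

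**Figure D2:**
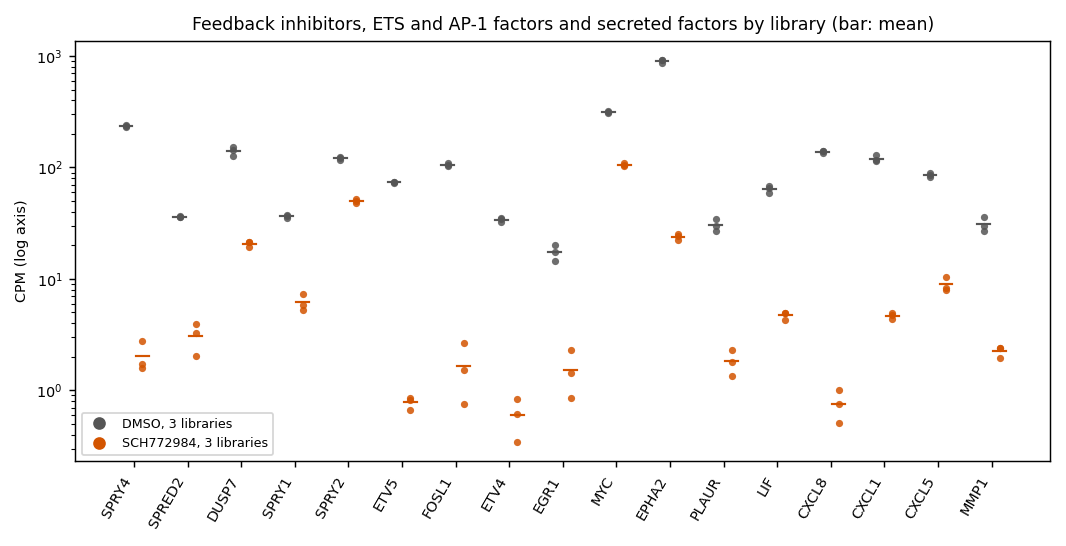
CPM on a log axis (y) of 17 genes (x) in each of the 3 DMSO libraries (grey) and 3 SCH772984 libraries (orange), with bars at the group means. No gene shown has overlapping groups, as for 74.3% of all genes tested; the gap is widest for CXCL8, SPRY4 and ETV5 and narrowest for SPRY2 and MYC.

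Other transcripts commonly linked to ERK output followed, with 15 of 17 lower and 2 higher (median log2 fold change -1.51). EPHA2, an ephrin receptor of epithelial cells, was at 925, 924 and 875 CPM with DMSO and 22.3, 24.5 and 25.1 CPM with SCH772984 (log2 fold change -5.24 ± 0.075, adjusted p = 1.29e-42). The urokinase receptor PLAUR was at 34.5, 27.0 and 29.6 CPM with DMSO and 1.34, 1.79 and 2.31 CPM with SCH772984, and its protease PLAU fell (-1.79). The cytokine LIF (-3.76), the uridine phosphorylase UPP1 (-2.99), the chromatin protein HMGA1 (-1.301) and cyclin D, encoded by CCND1 (-0.70), fell with them. EPHA4 (1.48) and IL11 (1.02) were higher, and the call of IL11 was lost without DMSO replicate 1 (0.86), DMSO replicate 2 (0.85) or SCH772984 replicate 3 (0.82).

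Chemokines of the CXC family were lower, and CXCL8 and CXCL1 were among the 10 largest falls of called protein-coding genes with a mean of at least 5 CPM and no overlap between groups. Of 39 chemokine genes only 6 had enough counts, and 5 of these were lower, 2 of them genes that passed the filter through DMSO alone. CXCL8 was 1 of those 2, with 12, 6 and 11 counts with SCH772984, so its call has a direction built in. CXCL8 (interleukin-8), which draws neutrophils, was at 139.5, 134 and 140.3 CPM with DMSO and 1.01, 0.512 and 0.746 CPM with SCH772984, with a log2 fold change of -7.49 ± 0.14 (SE, adjusted p = 2.36e-38). CXCL1, a ligand of the same receptor family, was at 117, 129.5 and 113 CPM with DMSO and 4.95, 4.78 and 4.34 CPM with SCH772984 (-4.68). CXCL5 was at 82.3, 88.3 and 85.7 CPM with DMSO and 8.23, 10.5 and 8.004 CPM with SCH772984 (-3.27). CXCL2 (-1.72) and CXCL3 (-1.55) were lower from low levels, and CXCL16, a membrane-anchored chemokine, was higher (0.83). The summed chemokine level was 369 to 381 CPM with DMSO and 50.2 to 55.4 CPM with SCH772984, with no overlap between groups. Beside them, the growth factor CSF3, which drives granulocyte formation, was at 18.4, 17.8 and 18.0 CPM with DMSO and 0, 0.512 and 0.475 CPM with SCH772984. The promoters of all 5 of these chemokines with a RefSeq entry, the 5 that fell, hold GGAATTTCC on either strand, a form of the NF-kB motif that was picked with these promoters in view, against 0.472% of all RefSeq promoter windows of the same length, and CXCL8 holds the AP-1 letters TGACTCA as well. The CXCL8 and CXCL1 windows are shown because these genes carry the fall, from RefSeq on GRCh38.p14 (CXCL8, chr4:73740319-73740618, plus strand; CXCL1, chr4:73869143-73869442, plus strand), each from 250 bases before to 50 after the start, 5′ to 3′. Capitals mark TGACTCA, which begins 137 bases before the CXCL8 start, and GGAATTTCC, which begins 91 and 78 bases before the starts of CXCL8 and CXCL1.
CXCL8: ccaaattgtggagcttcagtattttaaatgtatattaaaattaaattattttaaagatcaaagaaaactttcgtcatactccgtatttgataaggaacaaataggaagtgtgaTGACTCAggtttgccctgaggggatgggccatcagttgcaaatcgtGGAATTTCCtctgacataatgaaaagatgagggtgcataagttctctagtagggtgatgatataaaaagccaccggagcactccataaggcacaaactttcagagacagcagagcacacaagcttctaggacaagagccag
CXCL1: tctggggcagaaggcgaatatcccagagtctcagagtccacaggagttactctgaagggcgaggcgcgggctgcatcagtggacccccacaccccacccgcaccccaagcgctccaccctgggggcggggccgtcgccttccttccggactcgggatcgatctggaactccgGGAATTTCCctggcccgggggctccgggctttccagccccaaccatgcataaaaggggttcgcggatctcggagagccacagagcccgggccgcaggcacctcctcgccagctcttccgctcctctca

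Receptors upstream of RAS were mostly higher. Of 21 tested receptor tyrosine kinases, 15 were higher and 5 were lower, with a median log2 fold change of 0.63. The fibroblast growth factor receptor FGFR3 was at 30.6, 30.01 and 37.97 CPM with DMSO and 149, 149 and 172 CPM with SCH772984 (2.25). The collagen receptor DDR1 was at 75.8, 80.1 and 75.5 CPM with DMSO and 321, 294 and 318 CPM with SCH772984 (2.01). EGFR (1.13), ERBB2 (0.87), FGFR1 (0.81), the scatter factor receptor MET (0.78) and IGF1R (0.57) rose by smaller amounts. PDGFRB, a receptor of mesenchymal cells, had 0, 0 and 2 counts with DMSO and 82, 64 and 99 counts with SCH772984, at least 19.4-fold higher than the floor. AXL (-0.39), TYRO3 (-0.44), ROR1 (-0.59) and RYK (-0.27, not called under library size scaling) were lower, as was MST1R (-2.02) from a low level. The EGFR ligands BTC (2.64), EPGN (1.73) and AREG (0.84) were higher, EREG was not called (-0.09), and HBEGF, whose gene responds to ERK, was lower (-1.47).

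Adaptors that couple receptors to RAS went in both directions. SHC1 was at 547, 537 and 539 CPM with DMSO and 136, 124 and 131 CPM with SCH772984 (log2 fold change -2.05 ± 0.062), and GRB2 (-0.66) and the phosphatase PTPN11, or SHP2 (-1.08), were lower too, whereas SHC2 (3.45), CBLB (2.03), a ubiquitin ligase of receptors, and GAB1 (1.94) were higher from low levels and the exchange factor SOS1 was higher (0.52). Within the cascade, 11 of 27 tested genes were higher and 9 lower, with a median log2 fold change of -0.0042, and library size scaling gave 14 higher, 8 lower and a median of 0.17. MAP2K2 (0.73) and MAPK3 (0.67), which encode MEK2 and ERK1, rose, while MAP2K1 (-0.63), which encodes MEK1, fell. NRAS (-0.057), HRAS (-0.16) and BRAF (0.14) were not called. The RAS relative MRAS was at 6.55, 6.38 and 4.88 CPM with DMSO and 39.7, 37.5 and 40.3 CPM with SCH772984 (2.72). MKNK2, a kinase that ERK activates and that phosphorylates the cap-binding factor eIF4E, was at 268, 250.1 and 239 CPM with DMSO and 1084, 994 and 1106 CPM with SCH772984 (2.07). The nuclear kinase gene RPS6KA4 had the largest fall of the list (-1.25).

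**Figure D3:**
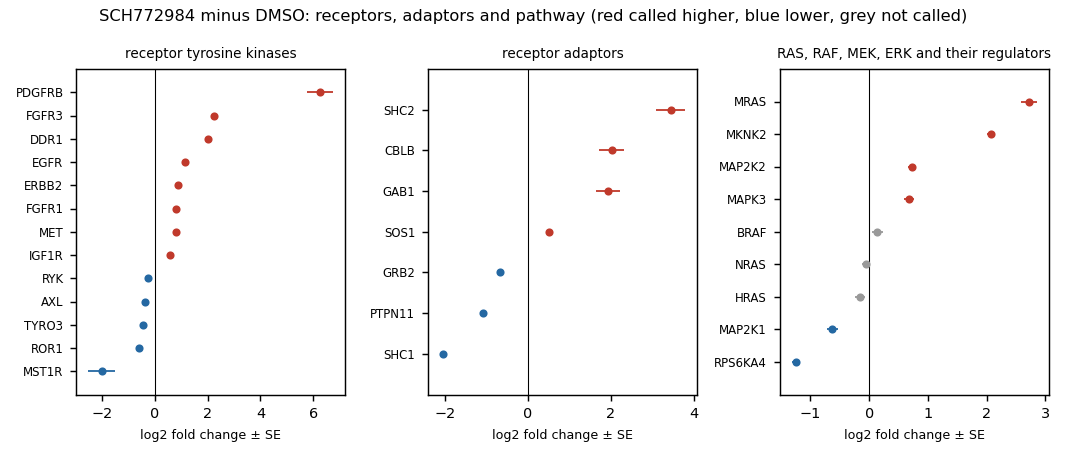
Log2 fold change with SCH772984 against DMSO (x axis, with edgeR's standard error as bars) of the receptor tyrosine kinases, receptor adaptors and members of the RAS, RAF, MEK and ERK cascade named here (y axis). Most receptors lie to the right of 0, and the adaptors and the cascade lie on both sides; PDGFRB, at the floor with DMSO, stands at a fitted value that is no bound.

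Of 4 tested survival genes of the BCL2 family 3 were lower and BCL2L2 was not called (-0.24), while the pro-apoptotic genes were divided. BCL2 was at 11.96, 11.6 and 10.3 CPM with DMSO and 2.02, 1.02 and 1.63 CPM with SCH772984 (log2 fold change -2.85 ± 0.23), and MCL1 (-0.58), whose protein ERK stabilises, and BCL2L1 (-0.51) fell too. Of 10 pro-apoptotic members 4 rose and 5 fell, or 3 and 5 of the 8 that passed the filter in both groups. BMF, a BH3-only protein released from the cytoskeleton under stress, was at 0.728, 0.224 and 0.555 CPM with DMSO and 8.90, 12.1 and 12.4 CPM with SCH772984, and BCL2L11 (1.06), which encodes BIM, a protein that ERK marks for turnover, and BBC3 (1.05), which encodes PUMA, rose. PMAIP1 (-1.75), BID (-1.12), BAX (-0.52) and BAK1 (-0.62) were lower.

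Genes linked to FOXO factors, which growth signaling keeps out of the nucleus, were mostly higher, 13 of 19 against 3 lower, with a median log2 fold change of 1.06, or 12 and 3 of the 17 that passed the filter in both groups. All 4 FOXO genes rose, FOXO4 (2.38), FOXO6 (1.96), FOXO1 (1.32) and FOXO3 (1.28). CCNG2, a cyclin of resting cells, was at 9.36, 8.73 and 9.33 CPM with DMSO and 125, 121 and 105 CPM with SCH772984, and CITED2 (2.26) and the cell cycle inhibitor CDKN1B (1.05) rose. PIK3IP1, an inhibitor of PI3-kinase, was at 0.208, 0 and 0.333 CPM with DMSO and 9.07, 7.93 and 8.82 CPM with SCH772984, at least 26.3-fold higher than the floor, and passed the filter through SCH772984 alone. KLF2 (-2.68), TRIB2 (-1.36) and TXNIP (-0.40) were lower. The list of p53-linked genes had 11 higher and 4 lower of 19, or 9 and 4 of the 16 that passed in both groups, led by TP53INP1 (4.15), the antiproliferative BTG2 (3.33) and TP53I3 (1.81), while the nuclease gene AEN fell (-2.21). CDKN1A, the cell cycle inhibitor p21, was at 1.77, 2.35 and 1.55 CPM with DMSO and 4.37, 5.63 and 8.55 CPM with SCH772984 (1.72).

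Central carbon metabolism was lower at the steps from glucose to lactate. Of 23 tested genes of glucose uptake, glycolysis and lactate export, 18 fell and 5 rose, with a median log2 fold change of -0.58, and the summed level was 18347 to 19075 CPM with DMSO and 11753 to 12497 CPM with SCH772984. The glucose transporter SLC2A3 (-2.79), the lactate exporter SLC16A3 (-1.32) and hexokinase HK2 (-1.23) fell most. PKM, pyruvate kinase, was at 3565, 3488 and 3480 CPM with DMSO and 1733, 1652 and 1760.3 CPM with SCH772984 (-1.03). PGK1 (-0.64), ENO1 (-0.58) and LDHA (-0.57) fell by smaller amounts. The isozymes ALDOC (2.61), PFKFB2 (1.23) and PFKM (0.24) were higher. The values of ALDOA are uncertain, since 53.5% of its exonic bases overlap other genes. The pentose phosphate list had 5 of 10 genes higher and 4 lower. The oxidative enzymes H6PD (1.302) and PGD (0.38) and the transketolase TKT (1.26) rose, and RPIA (-1.18) and the phosphoribosyl pyrophosphate synthetases PRPS1 (-1.29) and PRPS2 (-1.17), which open nucleotide synthesis, fell.

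Nucleotide synthesis genes were lower along the pathways. In purine synthesis 9 of 11 genes were lower and 1 was higher, and in pyrimidine synthesis 11 of 12 were lower and 1 was higher, with median log2 fold changes of -0.97 and -1.14. PPAT, which commits to purines, was at 71.9, 73.8 and 74.3 CPM with DMSO and 38.5, 37.6 and 33.5 CPM with SCH772984, and PFAS (-1.37), GART (-0.95), PAICS (-0.91) and ATIC (-0.97) fell by similar amounts. For guanine nucleotides IMPDH1 fell (-1.21) and its paralog IMPDH2 was not called (-0.02). CAD (-0.85), which opens the pyrimidine pathway, DHODH (-1.09), UMPS (-1.002) and CTPS1 (-1.41) fell. The largest falls of the pyrimidine list were in steps toward DNA, RRM2 (-2.66) and TYMS (-2.04), which are also cell cycle genes. The paralogs ADSSL1 (1.61) and CTPS2 (0.57) were the higher members.

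Serine and one-carbon metabolism, which feeds these pathways, had 9 of 12 genes lower. MTHFD1L, a mitochondrial folate enzyme, was at 119, 120.5 and 109 CPM with DMSO and 24.5, 29.4 and 24.8 CPM with SCH772984. PSAT1, of serine synthesis, was at 281, 239 and 256 CPM with DMSO and 59.9, 65.8 and 63.2 CPM with SCH772984, and MTHFD2 (-1.74), SHMT2 (-1.12) and PHGDH (-0.82) also fell. The cytosolic folate enzyme MTHFD1 fell too (-0.27, not called under library size scaling), and its difference from the mitochondrial enzymes was not tested. ALDH1L2, which burns folate-bound carbon in mitochondria, was higher (2.79). Genes linked to ATF4, a factor of the amino acid response, had 11 of 19 lower and 6 higher. ATF4 itself was at 225, 209 and 216 CPM with DMSO and 86.7, 87.6 and 92.1 CPM with SCH772984. The large neutral amino acid transporter SLC7A5 was at 1462, 1258 and 1222 CPM with DMSO and 339.7, 341 and 366 CPM with SCH772984, and its partner chain SLC3A2 (-1.18), the glutamine transporter SLC1A5 (-1.76), TRIB3 (-1.95) and CHAC1 (-2.18) fell. ATF3 (1.501), SESN2 (0.84) and the cystine transporter SLC7A11 (0.65) rose.

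Sterol synthesis went the opposite way. Of 23 tested genes of cholesterol synthesis and its control, 19 were higher and 1 was lower, with a median log2 fold change of 1.39, and their summed level was 1676 to 1846 CPM with DMSO and 3841 to 3925 CPM with SCH772984. HMGCS1, which makes the precursor of mevalonate, was at 18.7, 21.0 and 19.0 CPM with DMSO and 95.2, 96.6 and 77.7 CPM with SCH772984 (log2 fold change 2.20 ± 0.095, adjusted p = 2.11e-24). MSMO1, a sterol demethylation enzyme, was at 18.6, 18.6 and 18.5 CPM with DMSO and 129, 133 and 125 CPM with SCH772984 (log2 fold change 2.80 ± 0.084), and TM7SF2 (2.63), LSS (2.05), MVK (2.10), MVD (1.802) and DHCR7 (1.61) rose by more than 2-fold as well. The regulators SREBF2, the transcription factor of the pathway, and INSIG1, which retains it in the endoplasmic reticulum, were higher (1.69 and 2.61). PMVK, EBP and HSD17B7 were not called (-0.21, 0.15 and 0.097). In 14 of 17 promoters of this list the letters CCAAT, the core of the NF-Y motif, stood on either strand, against 36.5% of tested protein-coding genes and 35.7% of all promoter windows of this length. The windows of HMGCS1 (chr5:43313363-43313662, minus strand) and MSMO1 (chr4:165327419-165327718, plus strand) from RefSeq on GRCh38.p14 are shown for the enzyme named first and for the largest rise, with CCAAT or its reverse complement in capitals.
HMGCS1: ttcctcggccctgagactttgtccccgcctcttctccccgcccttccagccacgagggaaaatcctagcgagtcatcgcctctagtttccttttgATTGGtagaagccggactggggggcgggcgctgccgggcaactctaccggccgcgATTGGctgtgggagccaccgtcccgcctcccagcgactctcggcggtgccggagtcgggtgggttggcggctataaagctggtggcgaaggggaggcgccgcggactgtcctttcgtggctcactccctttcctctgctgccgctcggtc
MSMO1: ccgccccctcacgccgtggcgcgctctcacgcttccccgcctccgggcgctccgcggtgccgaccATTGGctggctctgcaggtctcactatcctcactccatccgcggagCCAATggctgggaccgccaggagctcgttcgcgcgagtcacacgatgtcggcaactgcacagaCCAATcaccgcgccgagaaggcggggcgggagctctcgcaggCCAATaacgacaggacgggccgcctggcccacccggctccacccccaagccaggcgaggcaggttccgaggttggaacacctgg

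Fatty acid synthesis had 11 of 15 genes higher and 3 lower. The desaturase SCD was at 474, 407 and 404 CPM with DMSO and 1418, 1388 and 1368 CPM with SCH772984. FADS2 (1.81) and FADS1 (1.09), which act on polyunsaturated chains, rose with it, as did the acetate-activating enzyme ACSS2 (1.69) and malic enzyme ME1 (1.31). FASN, the synthase itself, was lower (-0.31), ACLY was not called (0.0026), and the elongase ELOVL6 fell (-1.35). Of the genes of fatty acid oxidation 12 of 21 were higher and 1 was lower, and the median was 0.26, beside a shift of 0.17 from the scaling alone. The carnitine transferases diverged, with CPT1C higher (2.82) and CPT1A lower (-0.63). The cytosolic isocitrate dehydrogenase IDH1, a source of NADPH, was at 46.7, 43.7 and 44.1 CPM with DMSO and 154, 136 and 140.2 CPM with SCH772984.

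Lysosomal genes rose across classes. Of 36 tested hydrolases and their activators, 28 were higher and 4 were lower, with a median log2 fold change of 0.81, and of 16 membrane proteins 12 were higher and 2 lower. The summed hydrolase level was 5707 to 6203 CPM with DMSO and 8403 to 8618 CPM with SCH772984. PSAP, the precursor of the saposins that present lipids to these enzymes, was at 1086, 978 and 964 CPM with DMSO and 2562, 2502 and 2572 CPM with SCH772984 (log2 fold change 1.33 ± 0.061). NEU1, which trims sialic acid, was at 26.4, 26.4 and 21.5 CPM with DMSO and 86.1, 86.6 and 92.3 CPM with SCH772984, and GALC (1.60), ASAH1 (1.48) and SMPD1 (1.296), which break down sphingolipids, all rose, as did NPC2 (1.38) and NPC1 (0.41), which carry cholesterol out of the lysosome. CTSO, a cathepsin, had the largest rise of the hydrolases (3.17) and was at 0.832, 1.01 and 1.11 CPM with DMSO and 6.88, 9.98 and 9.77 CPM with SCH772984. It passed the filter through SCH772984 alone. Of the membrane proteins CLN3 (2.67) had the largest rise, with 30.9% of its exonic bases shared with other genes, and CLN6 fell (-1.05). Cathepsin C went against the list, with CTSC at 883, 810 and 833 CPM with DMSO and 289, 314 and 316 CPM with SCH772984 (log2 fold change -1.46 ± 0.061), and the glycosidase GLA (-0.45) and the protease CTSL (-0.30, not called under library size scaling) were also lower. GUSB, used as a reference gene for qPCR in the study, was not called (0.087).

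Of 19 V-ATPase subunits 9 rose, led by ATP6V1A (0.98) and ATP6V0E1 (0.97), 2 fell, with ATP6V0B at -0.62, and 8 were not called, with a median log2 fold change of 0.16, or 12 higher and 1 lower under library size scaling. Of 37 autophagy genes 22 were higher and 8 lower. The higher genes included the ATG8 family members GABARAPL1 (2.72) and MAP1LC3A (2.33), the receptors OPTN (2.31) and SQSTM1 (1.16), the starting kinase ULK1 (1.26) and WIPI1 (1.64). The conjugation enzymes ATG3 (-0.66), ATG5 (-0.61), ATG7 (-0.50) and ATG16L1 (-0.52) were lower, with ATG101 (-1.14) of the ULK complex. TFEB, a transcription factor of lysosomal genes, was at 2.08, 2.91 and 1.78 CPM with DMSO and 3.78, 3.92 and 6.72 CPM with SCH772984 (1.11), and TFE3 (0.078) and MITF (-0.29) were not called. The CLEAR letters TCACGTGA, which TFEB and its relatives bind, stood in 3 of 24 hydrolase promoters and 3 of 13 membrane protein promoters, against 2.02% of tested genes. GAA, the glycogen-degrading acid glucosidase (0.98), holds them at 2 places, 77 and 32 bases before its start, and its RefSeq window on GRCh38.p14 (chr17:80101331-80101630, plus strand) is shown with them in capitals.
GAA: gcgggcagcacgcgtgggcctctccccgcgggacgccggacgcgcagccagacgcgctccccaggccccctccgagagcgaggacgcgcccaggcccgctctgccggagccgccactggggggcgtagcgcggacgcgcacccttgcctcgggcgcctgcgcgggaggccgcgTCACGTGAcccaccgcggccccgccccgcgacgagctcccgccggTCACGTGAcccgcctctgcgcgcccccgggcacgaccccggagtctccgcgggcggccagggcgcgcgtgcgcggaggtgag

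**Figure D4:**
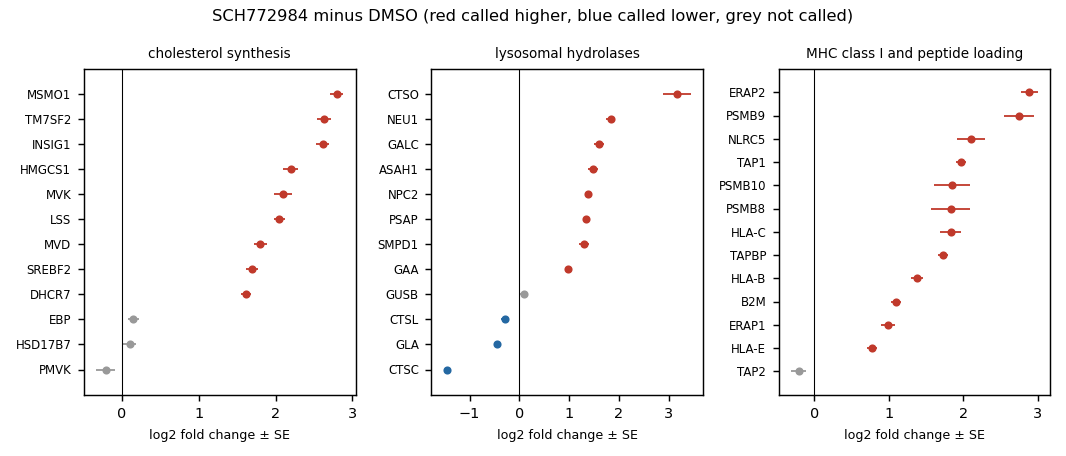
Log2 fold change with SCH772984 against DMSO (x axis, with edgeR's standard error as bars) of the genes named here of cholesterol synthesis, lysosomal hydrolases and MHC class I presentation (y axis). Most lie to the right of 0, and those called lower are CTSL, GLA and CTSC in the second panel.

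Genes of protein folding and degradation in the cytosol were lower. Of 24 cytosolic and mitochondrial chaperones 22 were lower and 2 higher, with a median log2 fold change of -0.99 and a summed level of 25622 to 28044 CPM with DMSO and 13031 to 14994 CPM with SCH772984. HSP90AA1, an inducible HSP90 chain, was at 6881, 6879 and 5858 CPM with DMSO and 3420.4, 3403 and 2845 CPM with SCH772984 (-1.02). HSPA8, the constitutive HSP70, was at 3516, 3574 and 3250.5 CPM with DMSO and 1750.2, 1626 and 1499 CPM with SCH772984 (-1.08). All 8 subunits of the CCT ring that folds actin and tubulin, TCP1 and CCT2 to CCT8, fell, with log2 fold changes from -1.39 for CCT5 to -0.60 for CCT3. In mitochondria HSPD1 (-1.26) and HSPA9 (-1.22) fell, and so did HSF1 (-0.73), the factor of the heat shock response. HSPB1 (0.30), whose call was lost without SCH772984 replicate 3 (0.29), and BAG3 (0.53) rose. The proteasome list had 29 of 37 lower and 3 higher, or 25 lower and 5 higher under library size scaling. Constitutive subunits fell by modest amounts, from -1.02 for PSMD11 to -0.19 for PSMB1 on the log2 scale, the last not called under library size scaling, and the 3 higher members were the immunoproteasome subunits PSMB8 (1.83), PSMB9 (2.75) and PSMB10 (1.85). Chaperones of the endoplasmic reticulum divided evenly, 8 higher and 8 lower of 19, with BiP, encoded by HSPA5 (-0.29, not called under library size scaling), SDF2L1 (-0.96) and XBP1 (-0.64) lower and SEL1L (0.93), of the disposal pathway, higher. Vesicle coat genes had 10 higher and 7 lower of 20, or 13 and 4 under library size scaling, with COPZ2 at 2.09 and SEC13 at -0.68.

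**Figure D5:**
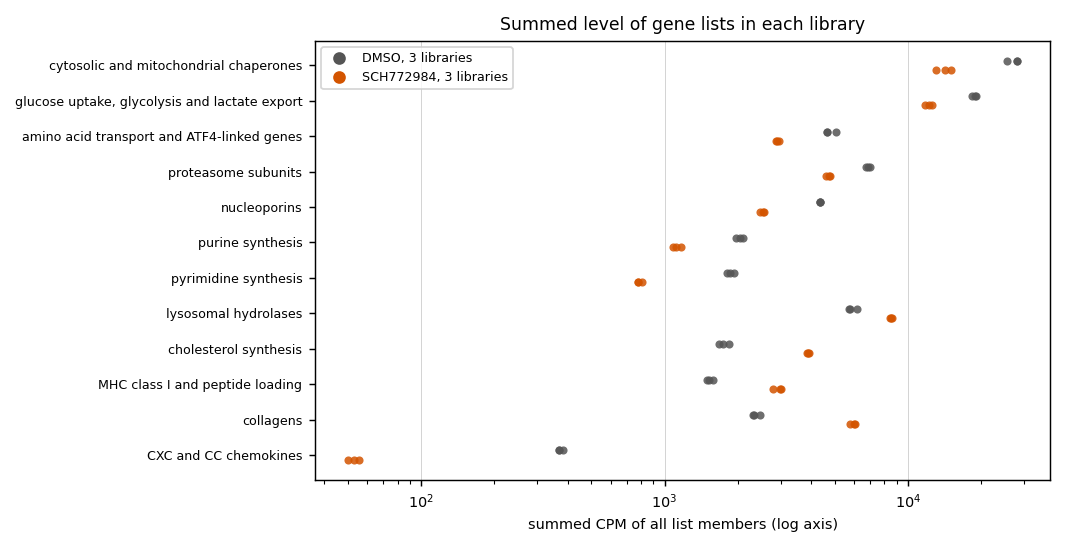
Summed CPM (x axis, log scale) of all members of 12 gene lists (y axis) in each DMSO library (grey) and each SCH772984 library (orange). The groups do not overlap for any list shown; the summed level is lower with SCH772984 for the upper 7 lists and the chemokines and higher for lysosomal hydrolases, cholesterol synthesis, MHC class I and collagens.

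Nuclear pore genes were mostly lower. Of 28 tested nucleoporins 25 were lower, 0 were higher and 3 were not called, with a median log2 fold change of -0.88. The count of higher members was 0 by edgeR also at an unadjusted p under 0.05 and 0 by DESeq2, and 1 when scaled by library size alone. SEH1L was at 152, 150.5 and 142 CPM with DMSO and 48.6, 53.4 and 51.2 CPM with SCH772984 (log2 fold change -1.54 ± 0.072). NUP107, like SEH1L a scaffold of the outer ring, was at 101, 111 and 97.5 CPM with DMSO and 39.0, 37.7 and 36.2 CPM with SCH772984 (log2 fold change -1.45 ± 0.078). NUP155 (-1.32), NUP93 (-1.17) and NUP205 (-1.05) of the inner ring and the membrane anchor NDC1 (-1.36) fell too, and the filament proteins TPR (-0.13) and RANBP2 (-0.029) were not called. The ETS letters CCGGAAG stood in 12 of 27 nucleoporin promoters on either strand, against 20.1% of tested protein-coding genes. The NUP107 window from RefSeq on GRCh38.p14 (chr12:68686728-68687027, plus strand) has them at 2 places, beginning 10 bases before and 10 bases after its start, in capitals.
NUP107: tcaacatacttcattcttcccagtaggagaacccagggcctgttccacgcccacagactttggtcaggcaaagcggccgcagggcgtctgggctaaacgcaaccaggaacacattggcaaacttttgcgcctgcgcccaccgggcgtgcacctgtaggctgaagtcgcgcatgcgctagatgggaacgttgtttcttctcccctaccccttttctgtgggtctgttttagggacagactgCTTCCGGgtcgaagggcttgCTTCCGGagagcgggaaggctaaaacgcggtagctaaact
Over all tested protein-coding genes with a RefSeq promoter these letters stood in 25.3% of the 3736 lower genes, 21.6% of the 2302 not called and 13.3% of the 3424 higher genes, and in 29 of 68 mitochondrial ribosomal protein promoters. Among genes changed by at least 2-fold they stood in 22.9% of the 1050 lower and 7.7% of the 1468 higher genes. In the ERK output lists they stood in 0 of 8 promoters of feedback inhibitors, 1 of 11 of ETS, AP-1 and EGR factors and 1 of 12 of other ERK-linked genes. For the E2F letters TTTCGCGC the shares were 1.2%, 1.04% and 0.613%, and for CLEAR 1.53%, 2.09% and 2.51%. For AP-1 they were 2.57%, 2.82% and 3.01%. The ETS letters were not alone in their order, with 3.77%, 3.56% and 2.69% for the CRE letters TGACGTCA. For the NRF1 letters GCGCATGCG the shares were 4.44%, 4.04% and 3.21%. These shares describe windows of 300 bases. Direction also moved with the level of a gene, with values given below, and its part in these shares was not tested.

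Mitochondrial genes did not move as a block. Of 77 mitochondrial ribosomal proteins 64 were lower and 3 higher, with a median log2 fold change of -0.53, with MRPL12 (-1.37) and MRPL58 (-1.34) the largest falls and MRPL53 (0.88) the largest rise, whose call was lost without SCH772984 replicate 2 (0.54). The nuclear-encoded respiratory chain had 16 higher and 28 lower of 73, but 32 higher and 16 lower when scaled by library size alone, which turned the median from -0.029 to 0.15. CYC1 (-0.77) and ATP5F1B (-0.48) fell, NDUFA13 (0.95) and UQCRB (0.36) rose. Of 31 tested transcripts encoded by the mitochondrial genome 18 were higher and 2 lower, with a median of 0.52. Of the 22 that passed the filter in both groups 16 were higher and 1 lower. In the citrate cycle IDH3A (-1.25) fell and PDK2 (1.78), an inhibitor of pyruvate entry, and pyruvate carboxylase PC (1.11) rose, with 9 higher and 12 lower of 26 and a median of -0.061 that turned to 0.11 under library size scaling.

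Genes of antigen presentation by MHC class I rose nearly throughout, and whether they moved apart from the interferon response was not tested. Of 18 tested genes 16 were higher and 0 were lower (1 by edgeR at an unadjusted p under 0.05 and 0 by DESeq2), with a median log2 fold change of 1.32 and a summed level of 1500.1 to 1589 CPM with DMSO and 2799 to 3004 CPM with SCH772984. The classical heavy chain HLA-B was at 43.0, 47.5 and 41.9 CPM with DMSO and 105, 113 and 125 CPM with SCH772984 (1.38). HLA-C was at 22.9, 19.9 and 23.2 CPM with DMSO and 62.8, 75.7 and 95.6 CPM with SCH772984 (1.83), and HLA-E (0.77) and the shared light chain B2M (1.09) were higher too. The HLA genes are close paralogs, and how their shared reads were counted makes their values uncertain. The peptide transporter TAP1 was at 62.5, 66.6 and 63.9 CPM with DMSO and 244, 245 and 266 CPM with SCH772984 (log2 fold change 1.97 ± 0.069, adjusted p = 6.5e-28), while its partner TAP2 was not called (-0.21). The trimming enzymes ERAP2 (2.89) and ERAP1 (0.99), the loading factor TAPBP (1.73) and NLRC5 (2.10), the transactivator of these genes, rose. Of 11 complement genes 9 were higher and 1 was lower, and 2 of the higher ones passed the filter through SCH772984 alone. C1S, a protease that opens the classical pathway, was at 5.62, 5.82 and 5.66 CPM with DMSO and 54.6, 58.6 and 57.3 CPM with SCH772984, and its partner C1R was at 0.728, 0.784 and 1.55 CPM with DMSO and 8.06, 8.19 and 9.50 CPM with SCH772984. Clusterin, CLU, an inhibitor of the end of the pathway, was at 218, 177 and 166 CPM with DMSO and 838, 793 and 709 CPM with SCH772984. The surface protectors CD46 (0.69), CD55 (0.73) and CD59 (0.94) rose by smaller amounts, and C1QBP, a mitochondrial protein despite its name, fell (-0.98).

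Collagens were mostly higher, and laminins, integrins and matrix proteases were divided. Of 44 collagen genes 20 were tested, 17 of them higher and 3 lower. Among the 15 that passed the filter in both groups 13 were higher, 2 lower and the median log2 fold change was 1.69. COL5A2 was at 1161, 1119.8 and 1066 CPM with DMSO and 3666, 3706 and 3403 CPM with SCH772984 (log2 fold change 1.69 ± 0.061). COL1A2, of the main fibrillar collagen, was at 514, 464 and 489 CPM with DMSO and 1125, 1030.5 and 995 CPM with SCH772984, and COL5A1 (2.87), COL6A1 (1.92) and COL6A2 (1.88) rose, whereas COL6A3 fell (-1.63) and so did COL17A1 of hemidesmosomes (-0.76). COL16A1 had 0, 0 and 0 counts with DMSO and 23, 21 and 30 counts with SCH772984, at least 5.87-fold higher than the floor. Among laminins, 5 of 10 higher and 3 lower, or 5 and 2 of the 8 that passed in both groups, LAMA5 was at 95.2, 85.9 and 97.4 CPM with DMSO and 397, 418 and 469.6 CPM with SCH772984. LAMB2 (2.22) and LAMC1 (1.27) were higher, and LAMA2 (-1.56) lower. Of the 6 fibroblast markers 4 were tested, COL1A1 (3.36), COL1A2 (1.10) and COL3A1 (2.67), which are members of the collagen list, and PDGFRB, and all 4 were higher. The markers, mostly COL1A2, summed to 472 to 522 CPM with DMSO and 1045 to 1185 CPM with SCH772984. The defining markers DCN and LUM had at most 1 count in any library. Of 14 integrins 5 were higher and 6 lower, but 3 passed the filter through SCH772984 alone, and of the 10 that passed in both groups 2 were higher and 6 lower. The receptors for laminin and fibronectin ITGA3 (-0.92), ITGA6 (-0.48), ITGA5 (-0.96) and ITGB1 (-0.34) fell and ITGAV (0.68) and ITGB5 (1.01) rose, with ITGAD (1.57) from low counts. Of the matrix proteases and inhibitors 11 of 22 were higher and 7 lower, but 6 passed the filter through SCH772984 alone, and of the 14 that passed in both groups 5 were higher and 6 lower, with a median log2 fold change of -0.036. The collagenase MMP1 was at 36.2, 30.01 and 27.1 CPM with DMSO and 1.93, 2.39 and 2.37 CPM with SCH772984. TIMP1, an inhibitor of such proteases, was at 534, 477 and 471 CPM with DMSO and 119, 125 and 149.6 CPM with SCH772984, and ADAMTS4 fell as well (-3.39), while ADAMTS10 (3.25), ADAMTS7 (1.76) and MMP11 (1.36) rose.

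Of 16 tested junction and keratin genes 8 were higher and 5 lower, or 6 and 5 of the 14 that passed the filter in both groups. Among the keratins, KRT8 was at 2592, 2540.4 and 2449 CPM with DMSO and 783, 732 and 827 CPM with SCH772984 (log2 fold change -1.69 ± 0.061). Its partner KRT18 was at 914, 926 and 839 CPM with DMSO and 177, 157 and 173 CPM with SCH772984 (log2 fold change -2.40 ± 0.064), and KRT19 was not called (0.11). The desmosome and junction genes JUP (2.61), DSP (0.79), PKP3 (0.61), F11R (1.78) and TJP3 (2.82) rose, whereas the claudins CLDN4 (-0.66) and CLDN1 (-0.39) and the scaffold TJP1 (-0.22, not called under library size scaling) fell. Of mesenchymal genes SNAI2 (2.00), SPARC (2.71) and FN1 (1.72) rose and ZEB1 (-0.61) and VIM (-0.23, not called under library size scaling) fell. Of 7 tested mesenchymal genes 4 were higher and 2 lower, but 2 of the higher ones passed through SCH772984 alone, and the 5 that passed in both groups had 2 higher, 2 lower and a median log2 fold change of -0.23. In the actin cytoskeleton 12 of 27 genes were lower and 6 higher, but 11 lower and 11 higher under library size scaling, which turned the median from -0.075 to 0.10. Vinculin, VCL, which anchors actin at adhesions, was at 1144, 1088 and 1104 CPM with DMSO and 505, 517 and 463 CPM with SCH772984, and FHL2 (-1.57), ACTN1 (-1.08), ZYX (-0.99), TPM3 (-1.299), TPM4 (-1.09) and SRF (-0.86) fell, while MYL9 rose (1.48). Of the YAP and TEAD list 9 of 23 were higher and 12 lower. FJX1 (-2.37), WWTR1 (-1.26), YAP1 (-0.75) and TEAD4 (-1.24) fell, and RBMS3 (1.89), TEAD1 (0.55) and LATS2 (0.85) rose.

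Guidance molecules first known from the nervous system were mostly higher. Of 24 semaphorins, plexins and neuropilins 14 rose and 4 fell, and among the 21 that passed in both groups 12 rose and 3 fell. Under library size scaling 2 fell. SEMA3C, a secreted ligand, was at 391, 405 and 377 CPM with DMSO and 1316, 1398 and 1146 CPM with SCH772984. SEMA3A was at 298, 306 and 305 CPM with DMSO and 848, 880.5 and 734 CPM with SCH772984. SEMA3D, from a lower level, was at 11.1, 6.83 and 10.5 CPM with DMSO and 124, 114 and 107 CPM with SCH772984. The receptors PLXNB2 (1.54), PLXNA3 (2.45) and NRP1 (1.79) rose with them, and PLXNA1 (-0.21, not called under library size scaling) and SEMA4C (-0.37) fell. Of ephrins and their receptors 9 of 17 were higher and 3 lower, or 8 and 2 of the 14 that passed in both groups. Beside the fall of EPHA2 its ligand EFNA1 was higher (2.34), as were EPHA7 (2.08) and EFNB3 (2.46). Protocadherins were higher in 14 of 16 tested genes, but 11 of these 16 passed the filter through SCH772984 alone, and the summed level of all 66 was 205 to 221 CPM with DMSO and 203 to 217 CPM with SCH772984. PCDH1, the member that fell, was at 144, 127 and 138 CPM with DMSO and 21.5, 16.7 and 18.4 CPM with SCH772984. PCDH9 was at 1.35, 1.79 and 0.777 CPM with DMSO and 34.1, 29.6 and 28.8 CPM with SCH772984 (4.55). PCDH18 had 1, 0 and 0 counts with DMSO and 129, 123 and 112 counts with SCH772984, at least 29.5-fold higher than the floor. Of 45 ion channel genes 29 were higher and 6 lower, and of the 32 that passed in both groups 19 were higher and 6 lower. Library size scaling left 3 lower channel genes. CACNA1H had 0, 0 and 0 counts with DMSO and 23, 39 and 32 counts with SCH772984, at least 7.57-fold higher than the floor. The calcium-activated potassium channel KCNN4 fell (-1.59), with KCNK5 (-2.50), while TRPM7 (1.03) and the calcium channel CACNA1A (3.40) rose. Of the drug and lipid transporters of the ABC family 18 of 30 were higher and 7 lower, or 15 and 6 of the 25 that passed in both groups. ABCC2, a drug exporter, was at 148, 138 and 149.8 CPM with DMSO and 433, 481 and 466 CPM with SCH772984, and ABCA5 (2.85), ABCC1 (1.44), ABCA2 (1.63) and ABCA7 (2.29) rose, while ABCC3 (-1.64) and ABCA10 (-2.34) fell.

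Genes of other signaling pathways were called in both directions. In the TGF-β and BMP list, 15 of 29 higher and 8 lower, or 18 and 5 under library size scaling, the inhibitory SMAD6 was at 8.01, 10.3 and 10.1 CPM with DMSO and 78.8, 75.8 and 76.0 CPM with SCH772984. The other inhibitory SMAD gene, SMAD7 (2.72), with SMAD9 (2.83), the decoy receptor BAMBI (1.72) and ID2 (2.42), a target of BMP signaling, rose too. The ligand BMP6 fell (-3.39), and SMAD4, which all branches share, was not called (-0.13). In the Wnt list 18 of 30 were higher and 6 lower, or 14 and 6 of the 25 that passed the filter in both groups. The ligands WNT9A (3.22), WNT7B (2.63) and WNT5B (1.89) rose, and the nuclear factor TCF7 was at 159, 177 and 160.2 CPM with DMSO and 30.8, 33.0 and 33.8 CPM with SCH772984, with the inhibitors ZNRF3 (-0.70) and NKD1 (-1.07) lower. In the Notch list, 10 higher and 7 lower of 20, or 10 and 3 under library size scaling, the receptor NOTCH3 was at 37.9, 35.5 and 39.3 CPM with DMSO and 170, 169 and 186 CPM with SCH772984. NOTCH1 (1.10) and JAG2 (0.96) rose, and the targets HES1 (-1.75) and NRARP (-1.796) fell, while HEY1 had 1, 2 and 0 counts with DMSO and 24, 23 and 33 counts with SCH772984, at least 6.33-fold higher than the floor.

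Chromatin and rhythm genes contained opposed pairs. DNMT1, which maintains DNA methylation through replication, was at 524, 520.4 and 542 CPM with DMSO and 165, 158 and 169 CPM with SCH772984. Its cofactor UHRF1 was at 337, 350.2 and 329 CPM with DMSO and 60.03, 63.2 and 58.1 CPM with SCH772984. DNMT3A, which methylates anew, was at 9.16, 10.9 and 12.4 CPM with DMSO and 33.6, 33.3 and 33.7 CPM with SCH772984, so that the maintenance pair was lower and the de novo enzyme higher. In the polycomb complex EZH2 (-0.93), EED (-0.86) and SUZ12 (-0.67) fell, and EZH1 (0.96) and JARID2 (1.58) rose. Over that list 10 were higher and 12 lower of 25, and the median of -0.13 turned to 0.042 under library size scaling. Of clock genes, 5 of 17 higher and 7 lower, PER2 (-1.66), NR1D1 (-1.43) and CLOCK (-0.90) fell, DBP (1.45) rose and ARNTL was not called (-0.014). Among Kruppel-like factors, 2 of 11 higher and 4 lower, KLF2 (-2.68), KLF4 (-1.12) and KLF10 (-1.11) fell and KLF9 (2.26) and KLF15 (1.59) rose. By the transcription factor families given in the deposited table, 8 of 10 tested E2F genes were lower. Among family members that passed the filter in both groups, 8 of 14 ETS genes were lower and 4 higher, and 159 of 438 genes of the C2H2 zinc finger family were higher and 105 lower. Of 409 genes named ZNF, 156 were higher, with ZNF467 (3.26) first, and 93 lower, with ZNF443 (-3.29) first, and of the 378 that passed in both groups 137 were higher and 91 lower. Of NRF2-linked genes, 10 of 19 higher and 6 lower, the glutathione enzyme GCLM was at 312, 310.3 and 313 CPM with DMSO and 64.6, 60.5 and 59.2 CPM with SCH772984. SRXN1 fell with it (-1.65), whereas AKR1C2 (3.60), HMOX1 (1.36) and the ferritin chain FTL (0.60) rose and NQO1 was not called (0.0094).

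The 10 protein-coding genes with the largest rises, by a rule requiring a mean of at least 5 CPM and no overlap between groups, were IGFN1, ANGPTL7, AC007325.2, ALDH8A1, AKR1C3, SAMD11, SSPO, SYNPO, LDHD and CLIC3. IGFN1, a muscle protein (chr1:201190825-201228952), had 0, 0 and 0 counts with DMSO and 834, 955 and 1336 counts with SCH772984, at least 247-fold higher. The secreted ANGPTL7 had 1, 0 and 0 counts with DMSO and 157, 136 and 149 counts with SCH772984, at least 35.6-fold higher. SAMD11 was at 1.14, 1.23 and 1.22 CPM with DMSO and 71.5, 68.5 and 94.8 CPM with SCH772984 (log2 fold change 6.02 ± 0.17, adjusted p = 1.29e-26). AKR1C3, which reduces steroids and prostaglandins, was at 0.208, 0.448 and 0.333 CPM with DMSO and 31.5, 22.9 and 20.6 CPM with SCH772984, and its near-identical paralogs may share its reads. The dehydrogenase ALDH8A1 was at 0.520, 0.112 and 0.111 CPM with DMSO and 22.0, 22.3 and 19.5 CPM with SCH772984. SYNPO, which binds actin, was at 0.520, 0.672 and 0.333 CPM with DMSO and 22.1, 19.5 and 17.6 CPM with SCH772984, and LDHD, which oxidises D-lactate, at 0.832, 0.672 and 0.333 CPM with DMSO and 21.4, 21.2 and 25.2 CPM with SCH772984. All 10 had at most 11 counts in any DMSO library. All but SAMD11 passed the filter through SCH772984 alone, so their calls have a direction built in. AC007325.2 lies on a scaffold outside the assembled chromosomes and is uncertain. By the same rule the 10 largest falls were CXCL8, SPRY4, ETV5, FOSL1, ETV4, CSF3, EPHA2, ETV1, CXCL1 and NTSR1, of which the neurotensin receptor NTSR1 was at 208, 191 and 185 CPM with DMSO and 8.82, 7.93 and 9.36 CPM with SCH772984. Of these 10, 6 stood in the lists of feedback inhibitors, ETS and AP-1 factors or ERK-linked output. CXCL8, ETV5, FOSL1, ETV4, CSF3 and ETV1 passed the filter through DMSO alone.

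Direction moved with the level of a gene. In the lowest of 5 classes of genes by mean CPM over the 6 libraries, 47.6% were higher and 9.79% lower, and in the highest class 25.7% were higher and 59.2% lower, with median log2 fold changes of 0.71 and -0.30. The filter fixed part of this trend, since 1270 genes of the lowest class passed through SCH772984 alone, 81.7% of them higher. Of its 1018 genes that passed in both groups 26.7% were higher and 10.7% lower (median 0.24), whereas all genes of the highest class passed in both. Among genes that passed in both groups, long intergenic noncoding RNAs were higher in 36.2% of 199 and lower in 18.1%, antisense genes in 36% and 15.7% of 267, protein-coding genes in 33.8% and 41.5% of 10876, and processed pseudogenes in 9.78% and 33.3% of 225. On chromosome 19, 38.1% of 858 such genes were higher and 35.9% lower. The libraries with SCH772984 were deeper and held counts for 21381 to 22981 genes, against 18808 to 19224 with DMSO. Thinned to the lowest total, they gave 5007 higher and 4827 lower genes.

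Compound 1 gave a second reference at the same dose and time. In a direct edgeR comparison 66.3% of 13863 genes differed between SCH772984 and compound 1. For SPRY4 the direct log2 fold change was -6.87 ± 0.15 (adjusted p = 1.38e-18), for CXCL8 -8.16 ± 0.16, for HMGCS1 2.19 ± 0.14, for NEU1 1.44 ± 0.12, for HSPA8 -1.05 ± 0.083 and for TAP1 2.02 ± 0.09. Against DMSO compound 1 itself had log2 fold changes of 0.062 for SPRY4, 0.68 for CXCL8, 0.013 for HMGCS1, 0.40 for NEU1, -0.022 for HSPA8 and -0.043 for TAP1. The 2 comparisons with DMSO share their control libraries. In the direct comparison with compound 1, 8 of 9 feedback inhibitors were lower and 1 was higher in the SCH772984 libraries, 18 of 23 cholesterol genes were higher and 1 lower, 28 of 36 lysosomal hydrolases were higher and 4 lower, 22 of 24 chaperones were lower and 2 higher, and 16 of 18 MHC class I genes were higher and 1 lower. The medians of MHC class I genes and chemokines with compound 1 against DMSO were 0.28 and 0.58. Of the kinases that the study centres on, IKBKE, which encodes IKKε, was at 1.35, 2.02 and 1.78 CPM with DMSO and 6.21, 5.12 and 5.49 CPM with SCH772984 (1.71). TBK1 was at 35.8, 39.0 and 38.7 CPM with DMSO and 35.9, 35.6 and 31.1 CPM with SCH772984 and was not called (-0.15), and its groups overlapped.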

How the data were processed

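Total RNA of MIA PaCa-2 cells, grown in DMEM with fetal bovine and horse serum, was sequenced by a commercial service after extraction with a Zymogen Quick-RNA kit. The authors deposited raw counts of reads per gene, not normalized, for 58735 genes in 9 libraries. The submitters' processing notes name HISAT2 (version 2.0.5), featureCounts (version 1.5.0-p3) and the genome build hg38. The strand setting is not given in the sources used here, so counts of overlapping and antisense genes are uncertain. All gene identifiers, names and coordinates matched GENCODE release 29.

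Groups were taken from the labels. Counts were tested with edgeR (version 4.0.16, R version 4.3.3), using TMM factors, filterByExpr (minimum count 10, minimum total 15), robust quasi-likelihood fits and Benjamini-Hochberg adjustment over all genes tested, in the 6 libraries of each comparison. A gene whose libraries in a group held at most 3 counts each was given only as a fold bound against that floor. On simulated data for SCH772984 against DMSO, with 12933 genes, the test recovered 89.8% of 196 genes changed by a log2 fold of 1 and called 0.0785% of the unchanged genes. The simulation changed few genes, in balance between directions, with the same dispersion for every gene. In the data 72.8% of genes tested were called, so these rates do not carry over to them. Replicates of a group differed by more than sampling noise, and same-numbered libraries did not deviate together (correlations of 0.015, 0.023 and 0.041). DESeq2 (version 1.42.0) served as an alternative. Promoter windows came from RefSeq on GRCh38.p14, which matched 9462 of 11884 tested protein-coding genes, and motifs were searched as exact letters on both strands, where TCACGTGA contains the E-box CACGTG.

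Named genes were the 10 most increased and 10 most decreased protein-coding genes (called, mean of at least 5 CPM, groups not overlapping), members of the gene lists, with the largest called rise and fall of each list among genes of at least 1 CPM, and genes that the study names. The members and lists were chosen with earlier results of these data known. CSF3 and NTSR1 stand outside the lists and were named by the first rule. Results on some genes of these lists are not reported here.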

Additional observations from a re-analysis of the deposited data

How the results depend on the processing

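Against DMSO, 5150 higher and 4916 lower genes became 5122 and 4943 with RLE factors, 6242 and 3911 with library size alone, 4424 and 4295 with at least 10 counts in every library, and 4736 and 4716 with DESeq2. Requiring at least a 2-fold change gave 2517 higher and 1472 lower genes against DMSO and 2293 and 1396 against compound 1. Leaving out each library in turn gave 4913 to 5097 higher and 4750 to 4957 lower genes against DMSO, and 4286 to 4844 and 4187 to 4605 against compound 1. The replicate number as a block gave 5145 higher and 4926 lower genes, and 4585 and 4424 against compound 1. These numbers do not pair the libraries by the check given above, and no sentence of the report rests on the block. The alternatives chosen after seeing the data were leaving out mitochondrial genes (5173 higher and 4866 lower), thinning to the lowest total (5007 and 4827) and leaving out genes with over 10% exonic overlap (4140 and 3948).

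List medians turned in sign for the citrate cycle (0.11 with library size alone, 0.019 with counts in every library), the respiratory chain (0.15, 0.051 and, with protein-coding genes alone, 0.020), DNA methylation and polycomb genes (0.042 with library size alone), actin genes (0.10 with library size alone) and mesenchymal genes (-0.15 with counts in every library), and the cause was not tested. Medians near 0 also turned for the RAS cascade (0.17 with library size alone, 0.075 with counts in every library, 0.044 with protein-coding genes alone, 0.0015 to 0.029 in 5 others), the pro-apoptotic genes (0.12 with library size alone, 0.036 without SCH772984 replicate 2), the clock genes (0.093 with library size alone) and the endoplasmic reticulum chaperones (-0.016 to -0.028 in 5 alternatives). Requiring a 2-fold change ended the calls of 105 named genes. Among genes the report names, library size alone ended the calls of CTSL (-0.12), HSPA5 (-0.12), MTHFD1 (-0.091), PLXNA1 (-0.033), PSMB1 (-0.019), RYK (-0.098), TJP1 (-0.045) and VIM (-0.058). The call of IL11 was lost without DMSO replicate 1 (0.86), DMSO replicate 2 (0.85) or SCH772984 replicate 3 (0.82), that of HSPB1 without SCH772984 replicate 3 (0.29) and with all 9 libraries fitted together (0.31), and that of MRPL53 without SCH772984 replicate 2 (0.54). CHGB, an endocrine marker, lost its call with no filter (0.85), with DESeq2 (0.90) and without any single library other than DMSO replicate 1 (0.6996 to 0.91). PSMB1 (-0.11) and TJP1 (-0.14) lost their calls with counts in every library. The respiratory chain had 10 higher members without DMSO replicate 2. At these depths the precision of genes with few counts was limited.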
